A study of Homo sapiens with 12 samples.

Results

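The HOXD cluster is a row of 9 homeobox genes on human chromosome 2. It is described here through the called regions of 4 histone marks and of the transcription factor FOXA2 in a pair of colorectal adenocarcinoma lines. The members are all regions that overlapped chr2:176940000-177065000 (hg19) by at least 1 bp, a window of 125 kb that runs from below HOXD13, near 176.958 Mb, to above HOXD1, near 177.054 Mb. This rule used position alone and gave 72 of the 262931 regions in the 10 lists, 33 in SW620 and 39 in SW480. SW620 cells (labelled Dukes' type C) and SW480 cells (labelled Dukes' type B) were grown untreated in DMEM with fetal bovine serum, and both are epithelial tumour lines that come from the same patient. Each line gave 1 library per antibody, so no value below has a replicate check and no test between the lines was possible. Regions were called by the authors with HOMER, separately in each library against the input library of the same line. Markers of the cell type were not analysed here, since the lists give positions without gene names.

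HOX genes encode homeodomain transcription factors that give cells their position along the body axis. In HOX clusters the order of the genes on the chromosome follows the order in which they act along that axis, a property called collinearity. In vertebrates the posterior HOXD genes pattern the limbs, the genital tract and the hindgut, the part of the embryo that forms the distal colon. Of the marks, H3K4me3 sits at promoters, H3K4me2 at promoters as well as enhancers, and H3K27ac at either kind of element when it is active. H3K36me3 is laid down over the bodies of transcribed genes. FOXA2 is a forkhead factor of endoderm and liver that opens chromatin.

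The order of the genes, taken from the RefSeq gene table, was HOXD13, HOXD12, HOXD11, HOXD10, HOXD9, HOXD8, HOXD4, HOXD3 and HOXD1, all read toward higher coordinates where a promoter was at hand. HOXD13, mutated in inherited synpolydactyly, and HOXD12 and HOXD11 are posterior genes of the limb and urogenital tract. HOXD10 and HOXD9 act in the lumbar spinal cord and hindlimb in mice, and HOXD4, HOXD3 and HOXD1 are anterior genes of the hindbrain, neck vertebrae and sensory neurons in mice. The microRNA gene MIR10B lay just before HOXD4 in that order, the long non-coding RNA gene HAGLR between HOXD3 and HOXD1, and the homeobox gene EVX2 before HOXD13. Positions on the build of the lists were at hand for HOXD13 and HOXD1 alone and are rounded to 1 kb. Regions between them are therefore given by coordinates and by distance from the HOXD13 position, and are tied to no single gene.

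The promoters of 8 of the 9 genes were matched by symbol in RefSeq (GRCh38.p14), and HOXD9 was not matched. The sequences of HOXD13 and HOXD1 are shown because these are the genes at the ends of the cluster whose positions carried H3K4me2 in both lines but H3K27ac in SW480 alone. HOXD4 is shown because its promoter held the fewest CpG dinucleotides of the 8. Each is the stretch of 250 bases before the annotated start on the plus strand, and capitals mark the letters CACGTG, a sequence that reads the same on both strands. The GRCh38.p14 coordinates are chr2:176092471-176092720 for HOXD13, chr2:176188418-176188667 for HOXD1 and chr2:176151300-176151549 for HOXD4, and they cannot be set against the hg19 coordinates of the regions.
HOXD13: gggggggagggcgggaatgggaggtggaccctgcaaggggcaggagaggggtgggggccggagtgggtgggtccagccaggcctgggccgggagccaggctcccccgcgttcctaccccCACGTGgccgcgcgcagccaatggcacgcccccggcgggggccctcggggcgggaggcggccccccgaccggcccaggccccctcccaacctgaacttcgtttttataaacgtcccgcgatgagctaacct
HOXD1: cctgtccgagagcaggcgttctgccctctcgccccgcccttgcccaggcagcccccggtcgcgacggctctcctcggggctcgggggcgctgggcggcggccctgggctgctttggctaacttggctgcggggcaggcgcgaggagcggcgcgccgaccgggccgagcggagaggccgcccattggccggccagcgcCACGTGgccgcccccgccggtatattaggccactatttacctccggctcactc
HOXD4: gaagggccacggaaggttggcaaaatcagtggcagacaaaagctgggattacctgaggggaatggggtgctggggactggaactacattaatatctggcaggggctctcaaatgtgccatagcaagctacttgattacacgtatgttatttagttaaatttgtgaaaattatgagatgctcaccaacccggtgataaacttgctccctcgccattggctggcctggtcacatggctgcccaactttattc

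These promoters ranged widely in CpG content, the sequence feature that goes with H3K4me3 at many vertebrate promoters. HOXD1 had 31 CpG dinucleotides in 250 bases and HOXD8 had 28. HOXD11 and HOXD10 had 23 each, HOXD13 and HOXD3 had 21 each, HOXD12 had 16 and HOXD4 had 4. The median of the 8 was 22.0, against 11.0 over all 35116 promoters of the table. The letters CACGTG were found in 5 of the 8, those of HOXD13, HOXD11, HOXD10, HOXD3 and HOXD1, and in 6.34% of all promoters. Of the other motifs counted, CCAAT was found in 6 of the 8 and in 32.0% of all promoters. TATAAA was found in 1 of the 8 and in 10.7% of all. The set of all promoters was not matched for CpG content. CACGTG was picked after the sequences had been read, and a match is no evidence of a bound site.

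SW620 and SW480 had similar numbers of H3K4me3 and H3K4me2 regions across the window, but SW620 had fewer and shorter H3K27ac regions. H3K4me3 had 11 regions in SW620 and 12 in SW480, and H3K4me2 had 17 in SW620 and 16 in SW480. H3K27ac had 4 regions in SW620 and 9 in SW480. Measured by length, H3K27ac covered 6.66 kb of the window in SW620 and 22.2 kb in SW480, a ratio of 0.30, against 0.870 over the whole lists. For H3K4me3 the covered length was 16.5 kb in SW620 and 25.8 kb in SW480, a ratio of 0.638 against 0.895 over the whole lists. For H3K4me2 it was 34.0 kb in SW620 and 39.0 kb in SW480, a ratio of 0.872 against 1.08.

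**Figure D1:**
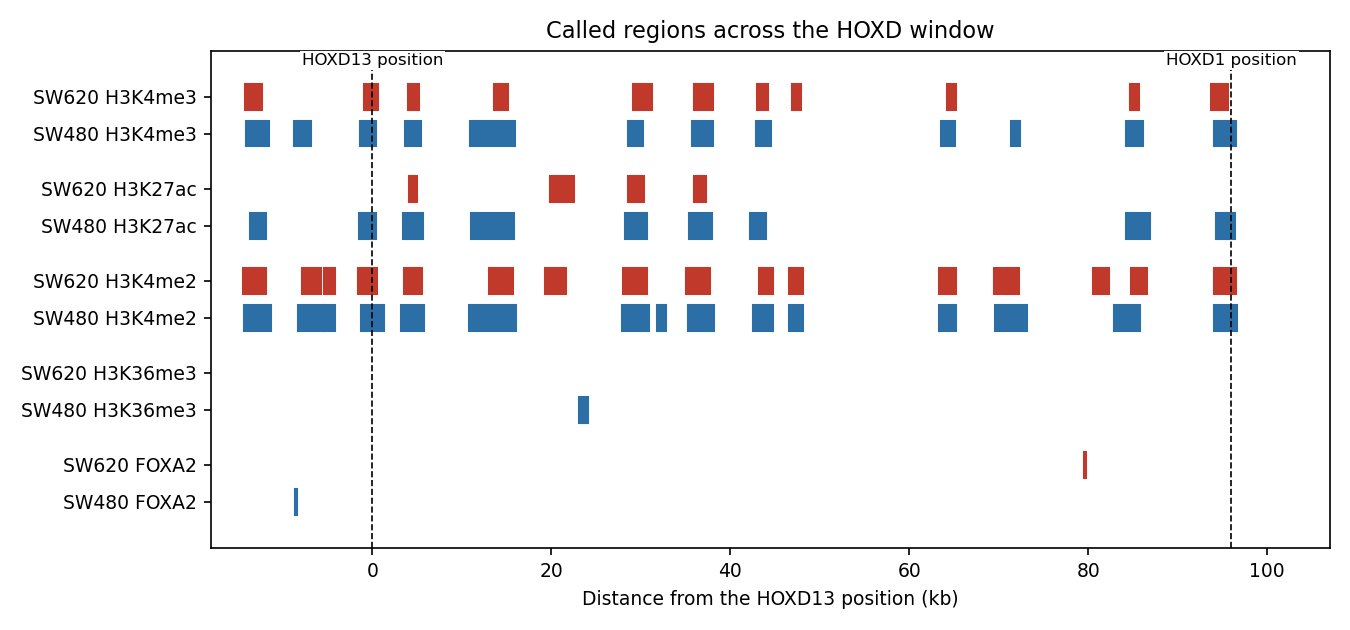
Called regions across the 125 kb window, with distance from the HOXD13 position in kb on the x axis and 1 row per library; bars are regions drawn to scale, except that FOXA2 SW480 is widened to be visible. H3K4me3 and H3K4me2 of both lines recur at the same places from end to end, whereas the 4 SW620 H3K27ac regions lie in the lower part and the 9 SW480 ones are spread over the cluster.

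**Figure D2:**
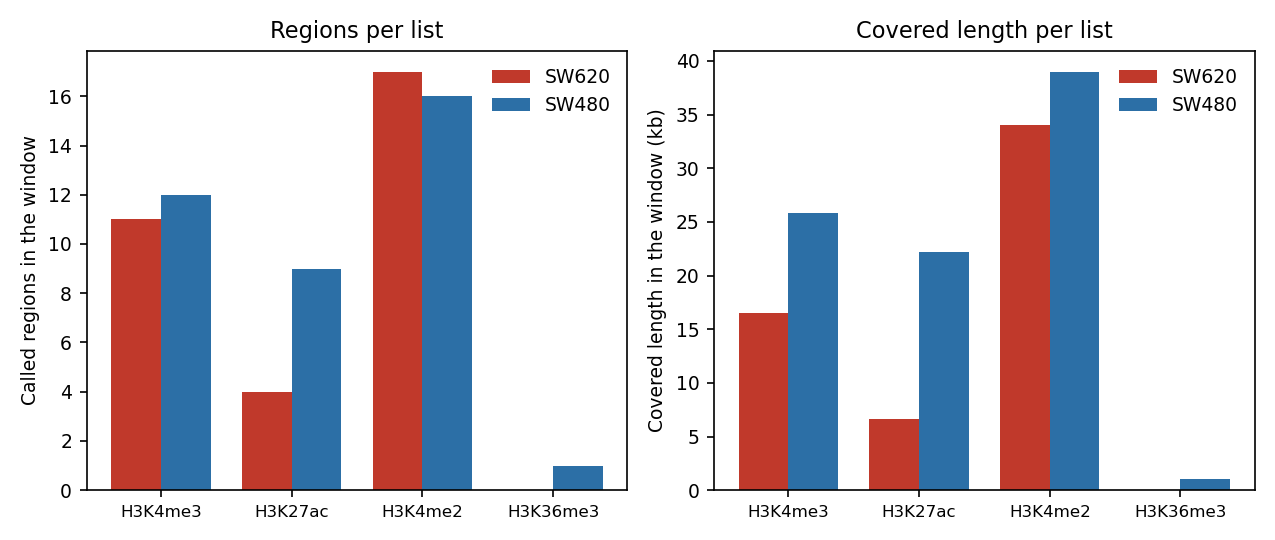
Number of called regions (left) and covered length in kb (right) in the HOXD window for the 4 histone marks, SW620 in red and SW480 in blue, 1 library per bar. The lines are furthest apart in H3K27ac, with 6.66 kb in SW620 and 22.2 kb in SW480.

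The H3K27ac libraries also differed as a whole. In SW620, 27.51% of 47867295 tags lay in called regions, against 58.51% of 34224728 tags in SW480. The part of this difference in the HOXD result was not tested. The rest of the neighbourhood is the 16 windows of equal length within 1 Mb on either side. There H3K27ac had 11 regions in SW620 and 7 in SW480. A single one of these windows held 3 of the SW620 regions and 1 of the SW480 regions. Counts this small cannot show the part of the libraries in the HOXD result. For H3K4me3 the share of tags in regions was 52.00% of 12791745 tags in SW620 and 73.03% of 16400013 in SW480, and for H3K4me2 it was 50.73% of 23671100 and 45.81% of 20958795 in the same order of lines. The lists hold no signal per region, since the deposited score was 1 in every row. A region missing from a list can therefore lie just below the threshold of the caller.

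H3K4me3 was called in both lines at 10 sites of the window. They were the HOXD13 and HOXD1 ends, 7 sites between them and 1 below HOXD13. Of the 11 SW620 regions, 10 overlapped an SW480 region, and 1 was found in SW620 only, where the background share of SW620-only regions over the whole list was 6.85%. Of the 12 SW480 regions, 2 were found in SW480 only, against a background of 17.1%. Shares from so few regions are not read as a departure from the background.

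The HOXD13 position itself lay inside an H3K4me3 region in either line, chr2:176957055-176958563 in SW620 and chr2:176956552-176958396 in SW480. Around HOXD1 the SW620 region, chr2:177051736-177053624, ended 376 bp short of the rounded position and the SW480 region, chr2:177052090-177054566, covered it. A region below HOXD13, on the side of EVX2, was called at chr2:176943758-176945604 in SW620 and chr2:176943878-176946422 in SW480. The ends of the cluster thus carried the promoter mark in both lines.

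Inside the cluster, the shared H3K4me3 regions ran upward from HOXD13 as follows. The first was chr2:176961943-176963193 in SW620 and chr2:176961600-176963372 in SW480. Next came chr2:176971617-176973129 in SW620, 1513 bp wide, within the broad SW480 region chr2:176968871-176973893, 5023 bp wide. This was the widest H3K4me3 region of the window in either line. The third was chr2:176987078-176989244 in SW620 and chr2:176986536-176988286 in SW480, the only matched H3K4me3 pair in which the SW620 region was the wider. The fourth was chr2:176993983-176996033 in SW620 and chr2:176993693-176996067 in SW480. The fifth was chr2:177001007-177002263 in SW620 and chr2:177000817-177002567 in SW480. The midpoint of this last SW620 region lay 43.6 kb above the HOXD13 position.

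Further up, toward HOXD1, lay another pair of shared regions, where chr2:177022215-177023215 in SW620 matched chr2:177021526-177023096 in SW480, and chr2:177042673-177043673 in SW620 matched chr2:177042214-177044120 in SW480. Both SW620 regions had the caller's minimum width of 1001 bp. The H3K4me3 region found in SW620 only, chr2:177004844-177005844, was also 1001 bp wide. Those found in SW480 only were chr2:176949282-176951092, below HOXD13, and chr2:177029413-177030413, 71.9 kb above the HOXD13 position. All 3 of these line-only regions overlapped H3K4me2 of their own line, and H3K4me2 of the other line was called at the same site.

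H3K27ac calls set the lines apart at these shared H3K4me3 regions. Acetylated is used below for a region that overlapped a called H3K27ac region. Of the 10 SW620 H3K4me3 regions that were also called in SW480, 6 overlapped H3K27ac in SW480 alone, 3 overlapped it in both lines, 1 in neither line and 0 in SW620 alone. Over the whole genome, 12.1% of 15197 such regions were acetylated in SW480 alone, 82.2% in both lines, 4.26% in neither and 1.41% in SW620 alone. Narrow H3K4me3 regions were more often acetylated in SW480 alone. Among the 7538 shared regions no wider than the widest SW620 region of the window, 2167 bp, the share was 22.6%, with 66.6% acetylated in both lines, 8.40% in neither and 2.40% in SW620 alone. This limit on width was chosen after the data were seen. It is an upper limit only and does not match widths: the median SW620 H3K4me3 region of the window was 1509 bp wide.

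**Figure D3:**
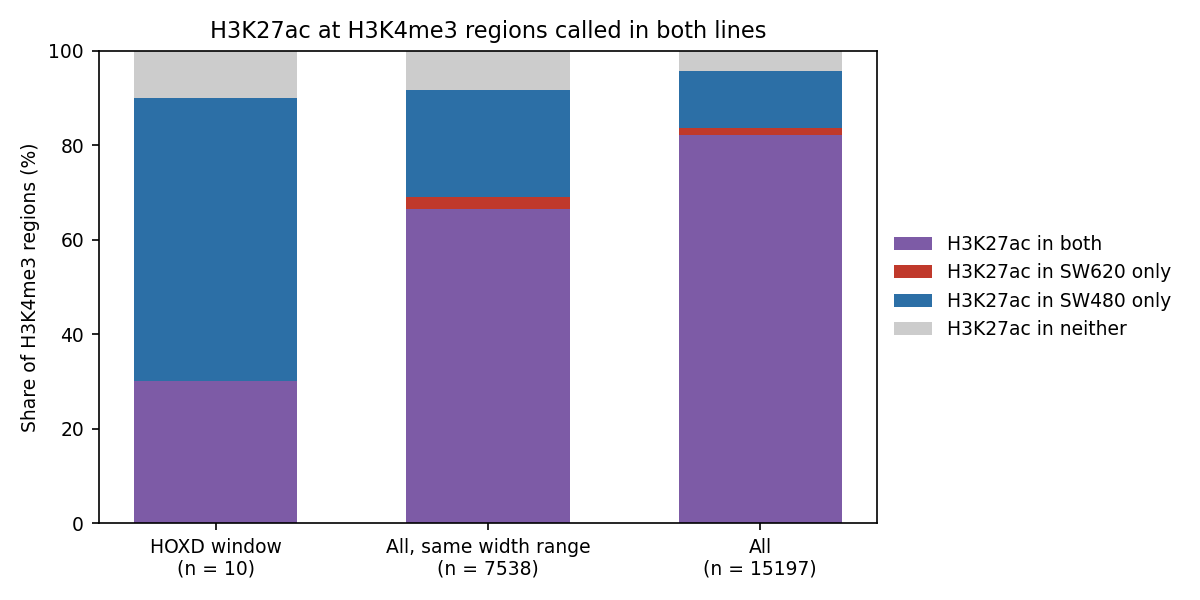
Share of SW620 H3K4me3 regions called in both lines, in percent, by the line in which H3K27ac overlapped them, for the HOXD window, for all regions no wider than the widest of the window, and for all regions. The class acetylated in SW480 alone holds 6 of 10 regions in the window, 22.6% in the middle bar and 12.1% in the last bar.

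The 3 shared H3K27ac regions lay at sites that carried H3K4me3, H3K4me2 and H3K27ac in both lines. They were chr2:176962026-176963026 in SW620 within chr2:176961393-176963659 in SW480, chr2:176986539-176988329 in SW620 within chr2:176986186-176988646 in SW480, and chr2:176993994-176995258 in SW620 within chr2:176993376-176995948 in SW480. In each case the SW620 region lay wholly inside the SW480 one. Their widths were 1001, 1791 and 1265 bp in SW620 and 2267, 2461 and 2573 bp in SW480. The midpoints of each pair differed by at most 36 bp.

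The 6 H3K27ac regions found in SW480 only lay at both ends and in the middle of the cluster, and made up 6 of 9, against a background of 32.0% of the whole SW480 list. At HOXD13 the region was chr2:176956492-176958414 and at HOXD1 it was chr2:177052341-177054355, and both covered the gene's position. Below HOXD13 lay chr2:176944258-176946046. The broadest was chr2:176969021-176973847, 4827 bp wide, over the broad H3K4me3 region described above. The remaining ones were chr2:177000228-177002010 and chr2:177042274-177044864. All 9 SW480 H3K27ac regions overlapped SW480 H3K4me3 and H3K4me2. SW620 carried H3K4me3 and H3K4me2 at each of the 6 sites without a called H3K27ac region.

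Within SW620, most of the H3K4me3-marked length of the window had no called H3K27ac. H3K27ac covered 21.3% of the H3K4me3-marked length in SW620 and 74.7% in SW480. Over the whole lists the shares were 78.7% in SW620 and 85.4% in SW480. By number, 3 of 11 SW620 and 9 of 12 SW480 H3K4me3 regions overlapped H3K27ac of their own line, against 82.2% (81.6 to 82.8) and 87.1% (86.6 to 87.6) of the lists in the same order. The intervals are 95% Wilson intervals and cover counting error only. From the first to the last, the H3K27ac regions spanned 33.2 kb of the window in SW620 and 110 kb in SW480.

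A single H3K27ac region ran the other way and was found in SW620 only, 1 of 4, against a background of 26.8%. It was chr2:176977895-176980499, 2605 bp wide and the widest SW620 H3K27ac region of the window. It lay 21.2 kb above the HOXD13 position. It overlapped the H3K4me2 region chr2:176977291-176979677, also found in SW620 only, over 1783 bp. No H3K4me3 was called there in either line, and no region of any mark was called there in SW480. This site was the only one in the window with the enhancer-like pair of H3K27ac and H3K4me2 without H3K4me3.

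Among H3K4me3, H3K27ac and H3K4me2, H3K4me2 was the most alike between the lines. Of the length covered in either line, 62.4% was covered in both, against 52.7% over the whole genome. The same share was 48.2% for H3K4me3, against 67.3%, and 16.3% for H3K27ac, against 48.2%. H3K4me2 thus lay above its genome-wide share and the promoter and acetylation marks below theirs. Of the 17 SW620 regions, 2 were found in SW620 only, against a background of 30.2%, and of the 16 SW480 regions 1 was found in SW480 only, against 23.2%.

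The outermost H3K4me2 regions were chr2:176943499-176946057 and chr2:177052105-177054571 in SW620, and chr2:176943687-176946633 and chr2:177052032-177054624 in SW480. The widest in SW620 were chr2:176971001-176973665, chr2:176986048-176988710 and chr2:176993100-176995720, between 2621 and 2665 bp. In SW480 they were chr2:176968754-176974072, 5319 bp wide, chr2:176949645-176952669, 3025 bp wide, and chr2:176943687-176946633, 2947 bp wide. Besides the SW620-only region at the enhancer-like site, chr2:177038535-177040287 was found in SW620 only, and chr2:176989779-176990779 in SW480 only. At the HOXD13 and HOXD1 positions H3K4me2 was called in both lines.

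Joining all H3K4me3, H3K4me2 and H3K27ac regions of both lines that touched or overlapped gave 16 sites. H3K4me2 was present at every one of the 16, in both lines at 13 of them. H3K4me3 was present in both lines at 10 sites, in SW620 alone at 1, in SW480 alone at 2 and in neither line at 3. H3K27ac was present in both lines at 3 sites, in SW620 alone at 1, in SW480 alone at 6 and in neither line at 6. The longest stretch of the window without a region of any antibody in either line was 15.2 kb long, from chr2:177006133 to chr2:177021350. It separates the lower part of the cluster from the upper part that ends at HOXD1.

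The shared regions were also narrower in SW620. Each region that overlapped exactly 1 region of the other line, and was overlapped by no other, was taken as a matched pair. For H3K4me3 the SW620 region was the narrower in 9 of 10 pairs, against a background of 55.6% of all matched pairs, and the median ratio of widths, SW620 over SW480, was 0.722, against 0.976 over all pairs. For H3K4me2 it was the narrower in 10 of 11 pairs, against 46.7%, with a median ratio of 0.868 against 1.00. For H3K27ac it was the narrower in 3 of 3 pairs, against 65.3%, with a median ratio of 0.492 against 0.918.

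**Figure D4:**
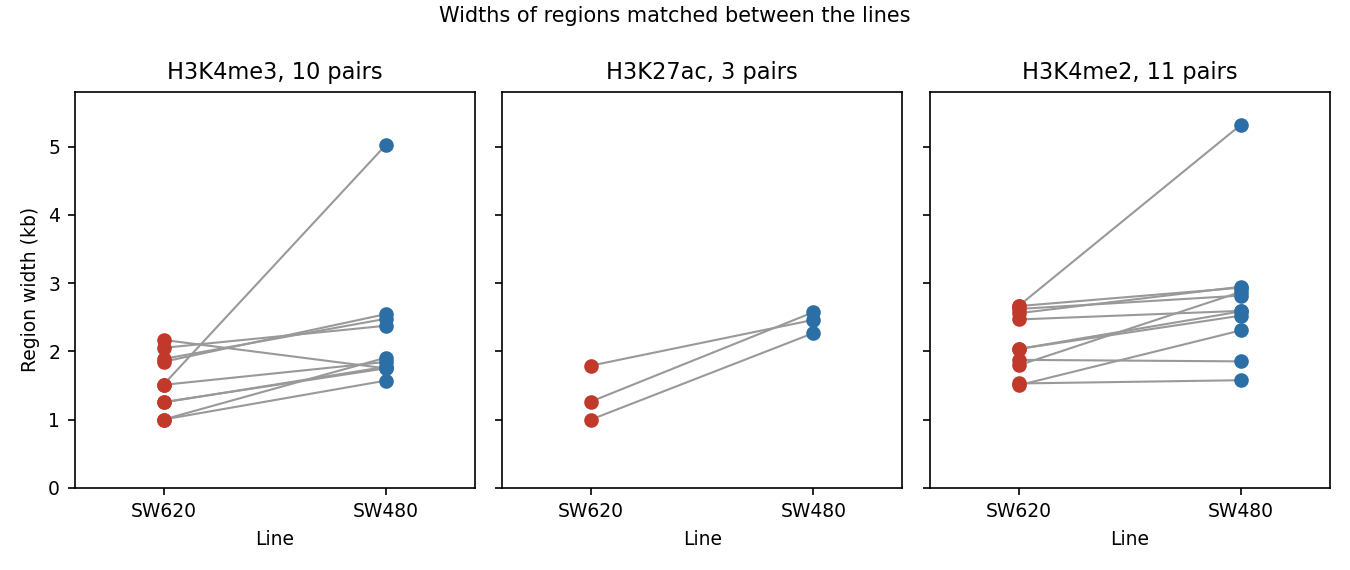
Width in kb of each region matched between the lines in the HOXD window, SW620 on the left and SW480 on the right of each panel, with a line joining each pair. The SW620 region is the narrower in 9 of 10 H3K4me3 pairs, 3 of 3 H3K27ac pairs and 10 of 11 H3K4me2 pairs.

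The largest difference in width was at the broad SW480 domain 13.4 kb above the HOXD13 position. There H3K4me3 was 1513 bp wide in SW620 and 5023 bp in SW480, a ratio of 0.301, and H3K4me2 was 2665 bp in SW620 and 5319 bp in SW480, a ratio of 0.501. Only the upper part of the SW480 domain was marked in SW620. The midpoints of matched H3K4me3 regions in the window differed by a median of 370 bp between the lines, where the median over all pairs was 33.0 bp. For H3K4me2 the median was 303 bp in the window and 239 bp over all pairs.

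H3K36me3, the mark of transcribed gene bodies, was called at 1 place in the window and in SW480 alone. SW620 had 0 regions and SW480 had 1, chr2:176981126-176982126, which had the minimum width of 1001 bp and overlapped no other mark. Its class, found in SW480 only, made up 34.3% of the whole SW480 list. The libraries were deep, with 46006580 tags in SW620 and 37446361 in SW480. Most windows of this length lacked the mark: 28.4% of 24743 windows held any H3K36me3 in SW620 and 29.4% in SW480, so the median over all windows was 0 in both lines. Among the windows that held any, the median was 5.00 regions in SW620 and 6 in SW480. Of the 16 neighbouring windows, 14 held none in SW620 and 12 held none in SW480.

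FOXA2 had 1 peak in the window in each line, at different places. The SW620 peak, chr2:177037488-177037806, lay between the middle of the cluster and HOXD1, on none of the 4 histone marks of either line. Its nearest marked region, the SW620-only H3K4me2 region at chr2:177038535-177040287, began 729 bp away. The SW480 peak, chr2:176949353-176949479, lay 8521 bp below the HOXD13 position, inside the H3K4me3 region found in SW480 only. The peaks were 88009 bp apart. A FOXA2 peak found in 1 line only is the common case, with 98.1% of the SW620 and 95.5% of the SW480 list. The FOXA2 libraries were unequal, with 2.25% of 18036456 tags in 12372 peaks in SW620. In SW480, 0.59% of 19473583 tags lay in 5207 peaks. The part of this difference in the FOXA2 results was not tested. No FOXA2 peak of either line touched the HOXD13 or HOXD1 regions, and none overlapped H3K27ac of the window.

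The density of H3K4 methylation made the cluster stand out from its surroundings. The genome was divided into consecutive windows of 125 kb, and those with at least 1 region of a list were ranked by covered length. The windows were aligned to the HOXD window, which holds the whole cluster. Other dense stretches can be split between windows, which favours the rank of the HOXD window. For H3K4me2, 0.879% of 12632 windows in SW620 and 0.334% of 12258 in SW480 had at least the length of the HOXD window. For H3K4me3 the shares were 1.54% of 8843 in SW620 and 0.300% of 9668 in SW480. For H3K27ac they were 27.1% of 9329 in SW620 and 4.12% of 9960 in SW480. For FOXA2, with its single peak, they were 99.7% of 7590 in SW620 and 99.8% of 4466 in SW480, and for SW480 H3K36me3 99.3% of 7269. In number of H3K4me3 regions, 9 windows in SW620 and 6 in SW480, the HOXD window included, had at least as many.

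Around the cluster, regions of H3K4me3, H3K4me2 and H3K27ac were sparse. In the 16 neighbouring windows, H3K4me3 had 8 regions in SW620 and 8 in SW480, with at most 2 in any window. The nearest H3K4me3 outside the window in SW620 lay 72.1 kb below it and 68.4 kb above it. Below, it was called at chr2:176866172-176867926 in SW620 and chr2:176866002-176868064 in SW480, and above at chr2:177133385-177134885 in SW620 and chr2:177133389-177134889 in SW480. Both places carried H3K27ac in both lines, whereas the ends of the cluster carried it in SW480 alone. FOXA2 had 9 peaks in these windows in SW620 and 0 in SW480, from lists of 12372 and 5207 peaks in the same order.

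**Figure D5:**
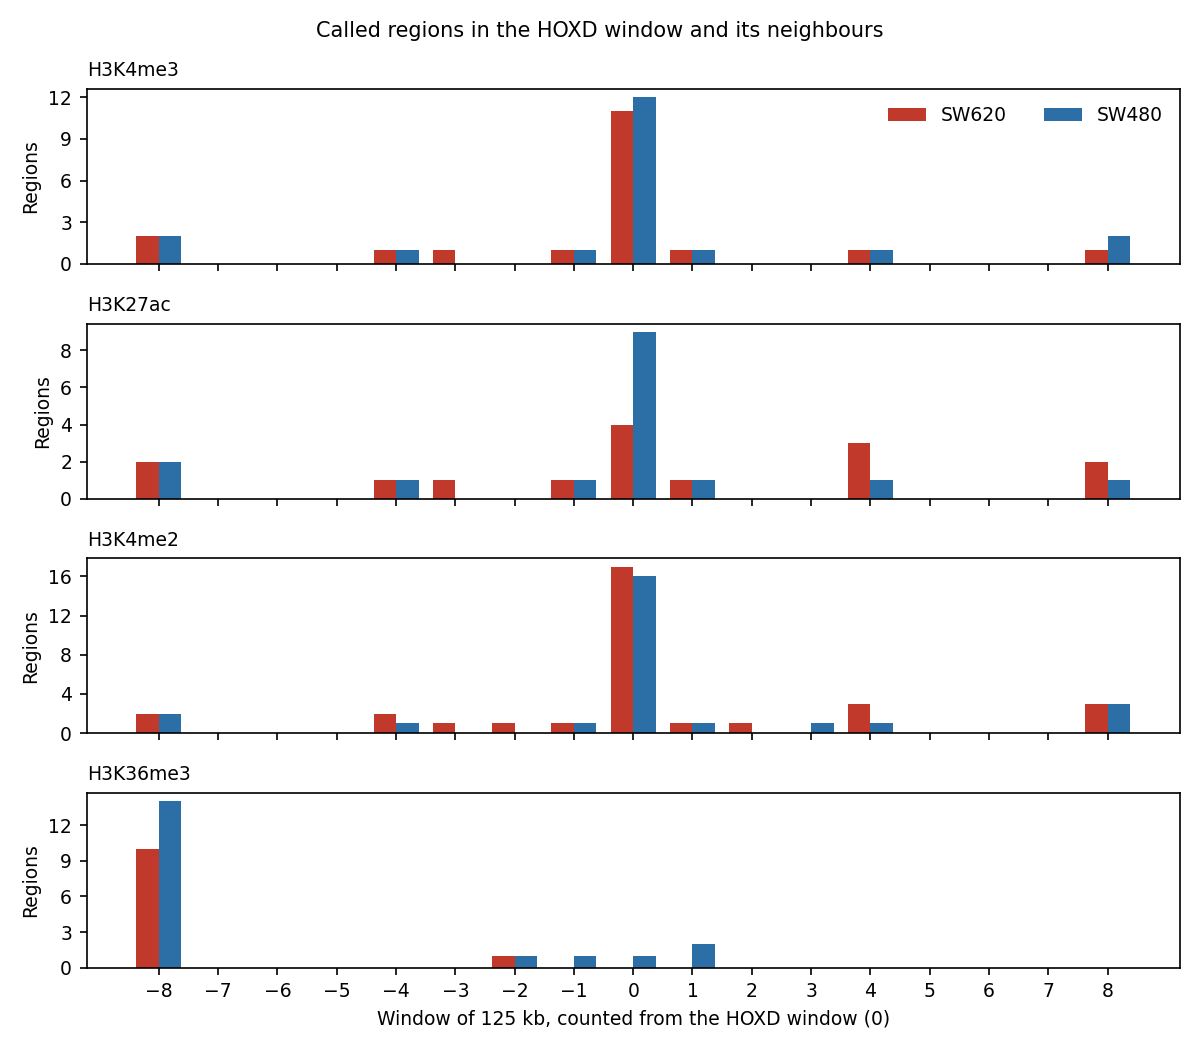
Called regions per window of 125 kb for the HOXD window (0) and the 8 windows on either side, SW620 in red left of SW480 in blue, for the 4 histone marks. H3K4me3 and H3K4me2 peak in the HOXD window in both lines, H3K27ac does so in SW480 with 9 regions and in SW620 with 4, and H3K36me3 is highest in the window furthest below, with 10 and 14 regions in the same order.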

How the data were processed

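ChIP-seq regions of 10 antibody libraries from SW620 and SW480, 1 library per group, were analysed, and the 2 input libraries entered through the authors' peak calling alone. Groups were taken from the sample titles. Per the file headers, the authors called regions with HOMER findPeaks, in the histone style with 4-fold enrichment over input and over the local region, or for FOXA2 in the factor style with 2-fold enrichment, at a false discovery rate of 0.001. In each histone list the headers give 0 putative regions removed by local signal, against 711 in SW620 and 118 in SW480 for FOXA2. Coordinates are on hg19, per the submitters' processing notes. For alignment, the tool used was not given in the sources used here. The deposited score was 1 for all regions and was not used. The other deposited values were start and end positions in bp, and tag totals came from the file headers.

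Overlaps of at least 1 bp were found with numpy 2.4.6 and pandas 2.3.3, and the functions were tested on simulated data against bedtools 2.31.1. Wilson intervals came from scipy 1.17.1, and figures from matplotlib 3.10.9. With 1 library per group no test was made. The members and lists were chosen with earlier results of these data known. All H3K4me3, H3K27ac and FOXA2 regions of the window are named, and of H3K4me2 the widest, outermost and line-only ones. The 16 sites and the matched pairs were defined after the data were seen. RefSeq tables (GRCh38.p14) gave gene order and promoters only. Alternatives covered the window, the overlap rule, region width, joining, list length and the windows ranked.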

Additional observations from a re-analysis of the deposited data

How the results depend on the processing

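Of 138 recomputed values for 41 results, 110 stayed close to the reported value. Counts were held to a factor of 1.5 and shares to their 95% interval. For shares of length this interval is a labelling rule, not a sampling error, and it is loose. A fall from 13.2% to 9.42% for SW620 H3K4me3 in the widened window was counted as close. So was a fall from 0.102% to 0% for SW480 FOXA2 between the HOXD13 and HOXD1 positions. The count of 6 shared H3K4me3 regions acetylated in SW480 alone was 6 with H3K27ac within 1 kb counted, with the SW480 list counted and with equal numbers of widest regions, all added after the data were seen. Its background of 12.1% moved to 22.6% when H3K4me3 regions were limited to those no wider than the widest SW620 region of the window.

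Keeping only regions at least 2 kb wide left 2 SW620 and 4 SW480 H3K4me3 regions (3.37% and 9.94% of the window), 1 SW620 H3K27ac region (2.08%), 9 SW620 and 10 SW480 H3K4me2 regions (17.2% of the window in SW620), and 0 SW480 H3K36me3 regions (0%). Widening the window by 25 kb on each side put H3K4me2 at 19.4% in SW620 and 22.3% in SW480. The added length held no H3K4me2, since the nearest region outside lay 67.8 kb from the window in either line. Between the HOXD13 and HOXD1 positions 0 SW480 FOXA2 peaks were left, since the only peak lay below HOXD13. Line-only counts moved to 1 for SW480 H3K4me3 with equal numbers of widest regions, to 1 for SW620 H3K4me2 with a region within 1 kb counted as shared, and to 2 for SW480 H3K4me2 with 50% overlap required. Ranked among all windows, empty ones included, the shares with at least the covered length of the HOXD window were 0.550% in SW620 and 0.117% in SW480 for H3K4me3, 10.2% and 1.66% for H3K27ac, 0.449% and 0.166% for H3K4me2, and 30.6% and 18.0% for FOXA2, against 99.7% and 99.8% among windows with a peak. For SW480 H3K36me3 the share was 29.2%, against 99.3% among windows with a region. Leaving out narrow regions can only lower a count or length, and adding empty windows can only lower a share. With windows shifted along the chromosome the share was 3.69% for SW480 H3K27ac, against 4.12%. The cause of this move was not tested. Each moved line-only count came from a single region. For H3K4me3 it was the SW480-only region chr2:177029413-177030413, of the minimum width of 1001 bp, which was left out. For SW620 H3K4me2 it was chr2:177038535-177040287, which lay 0.605 kb below the SW480 region chr2:177040893-177043763. For SW480 H3K4me2 it was that SW480 region, of which 35.7% was covered in SW620.

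No paired analysis was possible because each group has 1 library. Depth limits what the lists show: a called region carries no signal, so differences in strength below or above the threshold are not visible.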

Other observations

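Among windows as dense in H3K4me3, the HOXD window had the fewest or joint fewest H3K36me3 and H3K27ac regions. The HOXD window is counted among the windows below and enters their ranges and medians. The genes of the other windows were not identified. Among the 9 windows of 125 kb with at least 11 H3K4me3 regions in SW620, H3K36me3 ran from 0 to 15 regions with a median of 10.0, and the HOXD window was the only one with 0. Its 4 H3K27ac regions were the lowest number among them, shared with 1 other window, where the median was 11.0. Among the 6 windows with at least 12 H3K4me3 regions in SW480, H3K36me3 ran from 1 to 15 with a median of 7.50, and the HOXD window had 1. Its 9 H3K27ac regions were again the lowest number, where the median was 12.5. These windows were chosen by their H3K4me3 count after the data were seen, and the values are a description without a test.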
